A study of Mus musculus with 6 samples.

Results

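The glucocorticoid receptor gene Nr3c1 and 9 genes that glucocorticoids are known to induce were followed in mouse liver: Fkbp5, Tsc22d3, Sgk1, Dusp1, Klf9, Zbtb16, Tat, Mt1 and Mt2. These 10 genes, of 16375 in the deposited table, were chosen by name as members of the pathway. The choice was made with the inosine and control values of these same libraries already known, so their differences between the groups are given as a description and not as a test. All 10 were found in the table, and all 10 passed the low-count filter of edgeR, which left 12326 genes.

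The inosine group held 3 liver libraries from mice injected intraperitoneally with inosine, the nucleoside that forms when adenosine is deaminated. The control group held 3 liver libraries from mice labelled only as control. The series title names liver A-to-I RNA editing and cachexia as its subject, while no sample label names a tumour. The sources used here do not give strain, sex, age, dose, number of injections, what the controls received or the hour of collection. The design text speaks of mice but ties no library to an animal, so any p-value measures only the spread between these libraries.

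Glucocorticoids, corticosterone in the mouse, are steroid hormones of the adrenal cortex that are released in a daily rhythm and in response to stress. In the cytosol the receptor is held ready by HSP90 and its co-chaperones. Once it has bound the hormone it enters the nucleus and binds DNA elements made of a pair of inverted hexamers. In hepatocytes it is known for raising genes of glucose production and amino acid breakdown, together with genes that limit its own signal and that of inflammation.

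The libraries held between 16862048 and 17505035 counts in the inosine group and between 16383896 and 17009895 in the control group. All 10 hepatocyte markers were detected, and together they made up 113404 to 124661 CPM (counts per library of common size, scaled by the TMM method of edgeR) in the inosine libraries against 99268 to 126277 CPM in the control libraries. Summed erythroid markers ran from 306 to 506 CPM in inosine and from 646 to 852 CPM in control, so the groups did not overlap. Sums overlapped between the groups for Kupffer cells (242 to 289 against 249 to 354 CPM), sinusoidal endothelium (171 to 249 against 240 to 276), stellate cells (177 to 276 against 251 to 274), lymphocytes (2.0 to 4.78 against 3.33 to 5.76) and neutrophils (2.99 to 6.42 against 2.91 to 7.80). Cholangiocyte markers were at 38.1 to 55.9 CPM in inosine and 29.7 to 37.4 CPM in control, again without overlap. That higher sum was not shared by most cholangiocyte markers, since 3 of the 5 tested were lower in inosine. Among all single genes tested, 20.9% had groups that did not overlap. Adrenal cortex markers, 3 of 4 of them in the table, were at 6.42 to 8.08 CPM in inosine and 5.2 to 7.68 CPM in control. Although most sums overlapped, single markers of several types were mostly lower in inosine. Of those tested, 7 of 8 Kupffer, 7 of 8 endothelial and 8 of 8 stellate markers had a log2 fold change below 0. So did 3 of 3 lymphocyte, 3 of 3 neutrophil and 5 of 5 erythroid markers. Shares below 0 were 3 of 5 for cholangiocyte, 5 of 10 for hepatocyte and 1 of 2 for adrenal markers. Over all genes tested, 48.2% lay above 0. No marker in the table was at 0, and edgeR called none (the only gene it called lies outside these lists). In bulk tissue, fewer cells of a type and less RNA per cell cannot be told apart, and the part of these markers in the results was not tested.

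Control library 1 lay above controls 2 and 3 on several of the induced genes. Fkbp5, Tsc22d3, Zbtb16 and Tat stood in control 1 at or above the level of the inosine libraries, while controls 2 and 3 lay below all inosine libraries. Dusp1 was also highest in control 1 among the controls (95.8 TPM, against 18.5 and 38.5), but its inosine libraries ran from 18.2 to 85.3 TPM. The fold change of each member is therefore given both with all 6 libraries and without control 1. Control 1 was singled out by these same values, so p-values without it are given as a description. Duplicate libraries were not found: no pair inside a group agreed within sampling noise. Over the genes compared in each pair, control 1 also lay further from the other controls than those lay from each other. The mean squared difference, in units of counting noise, was 115.1 for controls 1 and 2 and 80.4 for controls 1 and 3. It was 27.3 for controls 2 and 3, and between 40.0 and 86.9 for the inosine pairs.

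Stretches of DNA upstream of the transcription start are printed for 4 members. They show where elements for the receptor, for metals and for cyclic AMP lie in genes that varied strongly between these libraries. Promoter windows of RefSeq (300 bases, the first 250 of them before the start) matched 8 of the 10 members, in 15 windows. Matches to the letters were sought on both strands, and each share is set beside that of all 32851 windows. Capitals mark the receptor's hexamers (AGAACA or TGTTCT) in Sgk1, the metal response core (TGCACNC or TGCGCNC) in Mt1 and Mt2, and the cyclic AMP element (TGACGTCA) in Dusp1.
Sgk1 (GRCm38.p6, chr10:21993640-21993889, plus strand): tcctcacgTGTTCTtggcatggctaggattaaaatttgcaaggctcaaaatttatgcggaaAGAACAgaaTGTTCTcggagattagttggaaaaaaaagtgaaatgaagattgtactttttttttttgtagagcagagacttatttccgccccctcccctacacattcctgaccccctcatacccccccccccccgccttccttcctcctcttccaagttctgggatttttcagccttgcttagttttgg
Mt1 (GRCm38.p6, chr8:94178839-94179088, plus strand): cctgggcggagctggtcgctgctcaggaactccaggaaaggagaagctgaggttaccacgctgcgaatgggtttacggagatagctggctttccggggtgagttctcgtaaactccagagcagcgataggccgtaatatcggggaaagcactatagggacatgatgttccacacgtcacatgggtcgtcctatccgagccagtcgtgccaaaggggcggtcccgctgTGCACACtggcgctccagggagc
Mt2 (GRCm38.p6, chr8:94172368-94172617, plus strand): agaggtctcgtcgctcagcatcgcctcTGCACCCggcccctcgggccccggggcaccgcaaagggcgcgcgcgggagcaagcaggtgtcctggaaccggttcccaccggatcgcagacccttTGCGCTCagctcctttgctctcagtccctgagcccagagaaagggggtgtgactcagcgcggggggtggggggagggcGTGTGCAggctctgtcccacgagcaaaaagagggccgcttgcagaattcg
Dusp1 (GRCm38.p6, chr17:26508473-26508722, minus strand): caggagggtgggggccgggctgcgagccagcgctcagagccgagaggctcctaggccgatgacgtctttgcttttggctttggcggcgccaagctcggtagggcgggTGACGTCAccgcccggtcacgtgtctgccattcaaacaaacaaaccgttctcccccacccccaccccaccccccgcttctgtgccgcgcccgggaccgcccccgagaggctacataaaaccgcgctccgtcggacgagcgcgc

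A complete receptor element, AGAACA and TGTTCT with 3 bases between them, was present in 1 of the 6 windows of Sgk1, where it ran from position -189 to -175 relative to the start. Only 3 of 32851 windows (0.00913%) held the complete element, and 606 (1.84%) held it with up to 2 mismatches in the 12 fixed bases. Of the 8 members with a window, Sgk1 alone had such a match, in 2 of its windows. Single hexamers were found in 4 of the 15 member windows, 3 of Sgk1 and 1 of Tsc22d3, and in 19.0% of all windows. Mt2 had 3 metal cores in the printed stretch and 1 after the start. Mt1 had 1 before and 2 after the start, and 1 window each of Sgk1 and Dusp1 also held 1, as did 25.7% of all windows. Dusp1 had the cyclic AMP element at position -143, a motif of 1.79% of windows. The windows of Fkbp5, Tat, Klf9, Dusp1, Mt1 and Mt2 held no hexamer of the receptor, and sequence outside the windows was not searched. A match is a description of the letters and not of a bound site.

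In order of mean level per length, Tat came first and Zbtb16 last in both groups. In control 2, however, Mt1 (1212 TPM) stood above Tat (872 TPM), and the control means of Tat and Mt1 lie within their spread. Mean levels in TPM, a share of all transcripts that allows for length, in the inosine libraries were 2183 ± 451 for Tat, 1022 ± 390 for Mt1, 566 ± 246 for Mt2 and 214 ± 25 for Tsc22d3 (SD, n = 3). The control libraries had 1582 ± 756 for Tat, 836 ± 345 for Mt1, 459 ± 204 for Mt2 and 160 ± 102 for Tsc22d3 (SD, n = 3). Below these came Fkbp5 (55.3 ± 16.6 in inosine and 30.0 ± 35 in control) and Dusp1 (49.3 ± 33.8 in inosine and 50.9 ± 40.1 in control). Sgk1, Klf9 and Nr3c1 lay close together, between 20.8 and 22.4 TPM in inosine and between 20.8 and 23.4 TPM in control, with SDs between 2.09 and 15.3, and their order does not hold against that spread. Zbtb16 averaged 8.32 ± 3.10 TPM in inosine and 3.90 ± 3.25 TPM in control.

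**Figure D1:**
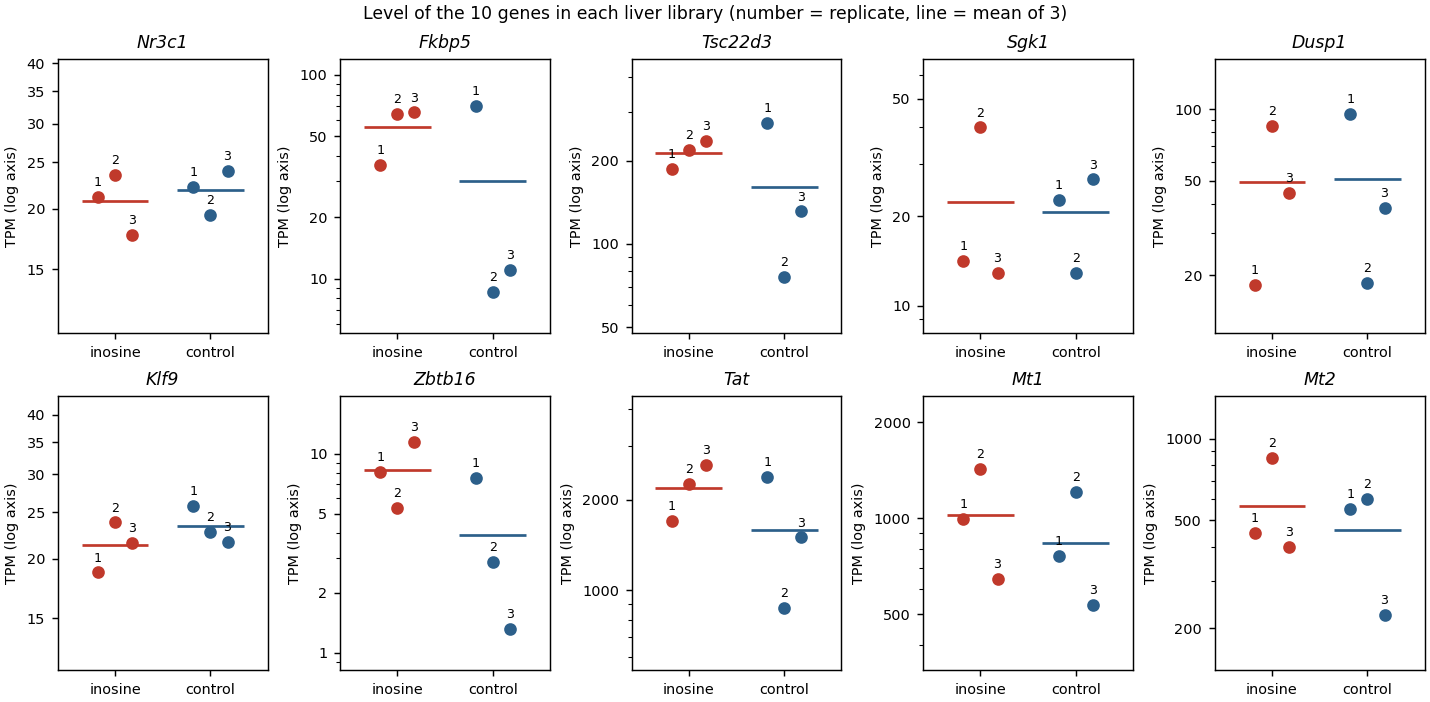
TPM of each of the 10 genes on log axes, inosine left and control right in every panel; points are libraries numbered by replicate and lines are means of 3 libraries. The groups overlap for each gene, and control 1 lies at the height of the inosine points for Fkbp5, Tsc22d3, Zbtb16 and Tat.

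Across all genes edgeR's quasi-likelihood test with Benjamini-Hochberg adjustment called 1 of 12326 genes (0.00811%) at an adjusted p under 0.05, and 0 of the 10 members. At an unadjusted p under 0.05 it had 1784 genes and 0 members. DESeq2 called 223 of 11601 genes (1.92%) and again 0 members, and the authors' deposited table gives the members q-values between 0.8541 and 0.9999. The groups overlapped for all 10 members, while 2577 of the 12326 genes (20.9%) had groups that did not. Nothing is read from these counts, since the same contrast was known when the genes were chosen.

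The receptor gene itself varied little. Nr3c1 (gene ID 14815, GRCm39 chromosome 18, 39543598 to 39652485, minus strand) had 21.2, 23.5 and 17.7 TPM in the inosine libraries, against 22.2, 19.4 and 24.0 TPM in the control libraries. Its log2 fold change of inosine over control was -0.14 (SE 0.09), and stayed between -0.20 and -0.07 when each library was left out in turn. The highest library exceeded the lowest by 1.13-fold in inosine and 1.2-fold in control on the CPM scale. In control 54.7% of all genes tested had a wider range. Control 1 lay between the other controls on this gene. The gene coordinates that follow are on the same build, GRCm39, while the promoter stretches are on GRCm38.p6.

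Fkbp5 encodes the immunophilin FKBP51, a co-chaperone that joins the HSP90 complex and lowers the receptor's affinity for hormone, so that its induction forms a short feedback loop. The gene (gene ID 14229, chromosome 17, 28616909 to 28705123, minus strand) had 36.2, 64.3 and 65.4 TPM in the inosine libraries, against 70.3, 8.62 and 11 TPM in the control libraries. The counts behind these were 1737, 2872 and 3160 in inosine and 3250, 425 and 539 in control. Controls 2 and 3 lay below every inosine library, and control 1 above every one of them on the TPM scale. With all 6 libraries the log2 fold change was 0.86 (SE 0.72), 1.81-fold higher in inosine. Without control 1 it was 2.43 (SE 0.29), and Fkbp5 was then the only member called (edgeR adjusted p = 0.0347), in a fit that called 56 of 12480 genes (0.449%). Without control 2 or 3 it was 0.42 or 0.46, so the value depended on each of the 3 controls. The range inside the control group was 2.94 on the log2 scale, or 7.71-fold, and 0.398% of all genes tested had a wider one. Inside the inosine group it was 1.01, against a median over all genes of 0.27.

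Tsc22d3 encodes GILZ, a leucine zipper protein known for carrying part of the anti-inflammatory action of glucocorticoids. On the X chromosome from 139440277 to 139501271 (gene ID 14605, minus strand), it had 187, 219 and 236 TPM in the inosine libraries, against 274, 76.0 and 131 TPM in the control libraries. The order of the controls was that of Fkbp5, with control 1 highest and control 2 lowest, and control 1 lay above all inosine libraries here too. The log2 fold change was 0.38 (SE 0.39), and 1.01 (SE 0.23) without control 1 (edgeR adjusted p = 0.0963). Without control 2 it was 0.06. Only 1.25% of genes had a wider range inside the control group than the 3.45-fold of Tsc22d3, while in the inosine group the libraries differed by 1.42-fold.

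The phosphatase and the kinase of the set were highest in inosine 2 among the inosine libraries, where Fkbp5 was highest in inosine 3. Fkbp5 and the phosphatase gene Dusp1 did share inosine 1 as the lowest inosine library, and the order of their controls. Dusp1 encodes a phosphatase that inactivates the MAP kinases p38, JNK and ERK. The gene (gene ID 19252, chromosome 17, 26724565 to 26727446, minus strand) had 18.2, 85.3 and 44.5 TPM in inosine, against 95.8, 18.5 and 38.5 TPM in control. Both groups ran over nearly the same span, with inosine 1 and control 2 at the bottom and inosine 2 and control 1 at the top. Its log2 fold change was -0.11 (SE 0.63) and turned to 0.70 (SE 0.55) without control 1 and to 0.28 without inosine 1. In both groups Dusp1 was among the most variable genes, with a wider range in 0.706% of genes in inosine and in 0.738% in control.

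Sgk1 encodes a serum- and glucocorticoid-regulated kinase that controls ion channels and transporters. Located on chromosome 10 (gene ID 20393, 21758083 to 21875802, plus strand), it had 14.2, 40.0 and 12.9 TPM in inosine, against 22.7, 12.9 and 26.7 TPM in control. Inosine 2 was 2.66-fold above the lowest inosine library in CPM, and the other 2 inosine libraries lay at the level of control 2. The log2 fold change was 0.01 (SE 0.41), and -0.62 without inosine 2. Among the controls Sgk1 was highest in control 3 and not in control 1. The libraries of Sgk1, the member with the complete receptor element printed above, were not ordered as those of Fkbp5.

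The 2 transcription factor genes differed from each other. Klf9, a Krüppel-like factor induced by glucocorticoids in several tissues, varied little among the controls, at 18.7, 23.8 and 21.6 TPM in inosine, against 25.8, 22.7 and 21.7 TPM in control (gene ID 16601, chromosome 19, 23118590 to 23145493, plus strand). Its log2 fold change was -0.19 (SE 0.11), between -0.27 and -0.09 without each library in turn. A wider range than that of Klf9 was found for 35.5% of genes in inosine and for 66.2% in control.

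Zbtb16 encodes the BTB zinc finger repressor PLZF. On chromosome 9 from 48563097 to 48747525 (gene ID 235320, plus strand), it had 8.12, 5.32 and 11.5 TPM in inosine, against 7.55, 2.85 and 1.31 TPM in control. Controls 2 and 3 again lay below all inosine libraries and control 1 within them, but here control 3 was the lowest. The log2 fold change of 1.08 (SE 0.57), 2.11-fold, was the highest of the 10, and it became 1.95 (SE 0.45) without control 1 (edgeR adjusted p = 0.0991). Over the omissions of each library it ran between 0.67 and 1.95, above 0 each time. The counts behind the lowest library were 132.

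Tat encodes tyrosine aminotransferase, which opens the breakdown of tyrosine in hepatocytes and is the classic glucocorticoid-induced enzyme of liver. The gene (gene ID 234724, chromosome 8, 110712684 to 110726436, plus strand) had 1703, 2248 and 2598 TPM in inosine, against 2376, 872 and 1498 TPM in control. Control 1 lay between inosine 2 and inosine 3, and controls 2 and 3 lay below all inosine libraries. Its log2 fold change was 0.43 (SE 0.34), 0.82 (SE 0.29) without control 1 and 0.15 without control 2. Tat and Tsc22d3 kept a near-constant ratio: Tsc22d3 over Tat in TPM was 0.110, 0.0973 and 0.0910 in inosine and 0.115, 0.0871 and 0.0876 in control, a 1.32-fold span over all 6 libraries. Fkbp5 over Tsc22d3 varied more, at 0.193, 0.294 and 0.277 in inosine and 0.257, 0.113 and 0.0836 in control, so Fkbp5 was low relative to Tsc22d3 in controls 2 and 3.

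Mt1 and Mt2 encode metallothioneins, small cysteine-rich proteins that bind zinc and copper; glucocorticoids, metals and the acute phase response are each known to induce them. They are neighbours on chromosome 8, Mt2 from 94899246 to 94900195 (gene ID 17750) and Mt1 from 94905214 to 94906955 (gene ID 17748), both on the plus strand. Mt1 had 996, 1426 and 646 TPM in inosine, against 760, 1212 and 535 TPM in control. Mt2 had 451, 848 and 399 TPM in inosine, against 553, 600 and 225 TPM in control. Both genes were highest in inosine 2 among the inosine libraries and highest in control 2 and lowest in control 3 among the controls, an order not shared with Fkbp5, Tsc22d3 or Tat. The log2 fold changes were 0.17 (SE 0.33) for Mt1 and 0.17 (SE 0.38) for Mt2, and both turned negative without inosine 2 or without control 3. The ratio of Mt2 to Mt1 was 0.453, 0.595 and 0.617 in inosine and 0.728, 0.495 and 0.421 in control, a 1.73-fold span. Their transcripts in the GENCODE set for GRCm38 share no stretch of 25 bases, the longest shared one being 20 bases. Reads longer than that can be told apart, though the sources used here give no read length.

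**Figure D2:**
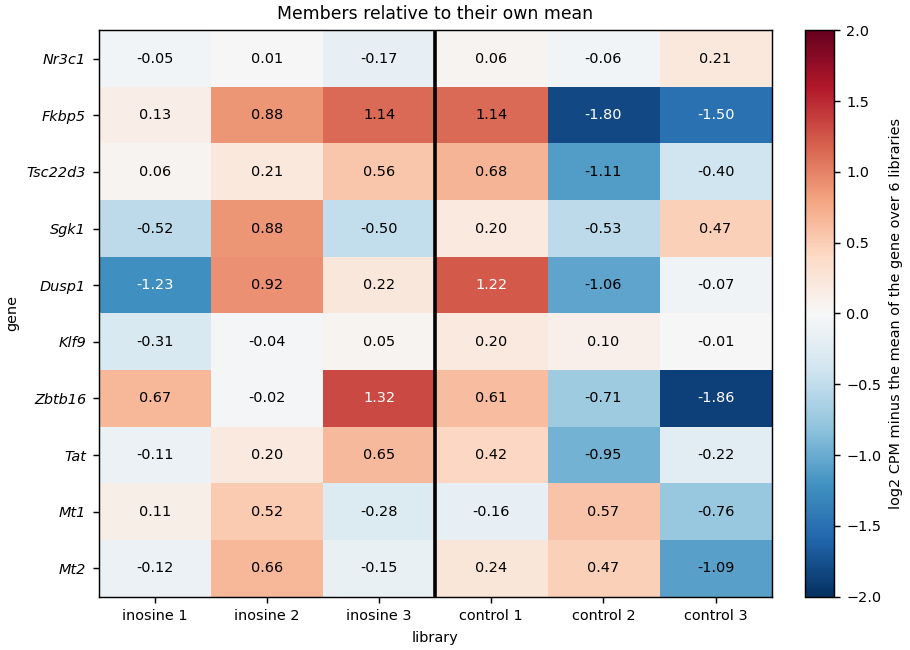
Log2 CPM of each gene minus its mean over the 6 libraries, with inosine libraries left of the black line and control libraries right of it. Fkbp5 is at -1.8 and -1.5 in controls 2 and 3 and at 1.14 in control 1, and Mt1 and Mt2 follow another order.

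By library, the median of the 10 centred values was -0.08, 0.37 and 0.14 in the inosine libraries and 0.33, -0.62 and -0.31 in the control libraries. Control 1 was the highest control for 6 of the 10 members and the lowest for none. Control 2 was the lowest control for 6 of them, and inosine 1 the lowest inosine library for 6. Over all genes tested, control 1 was the highest control in 36.6%, control 2 the lowest in 33% and inosine 1 the lowest inosine library in 33.2%. No test was made of these shares, since the genes are not independent of each other.

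**Figure D3:**
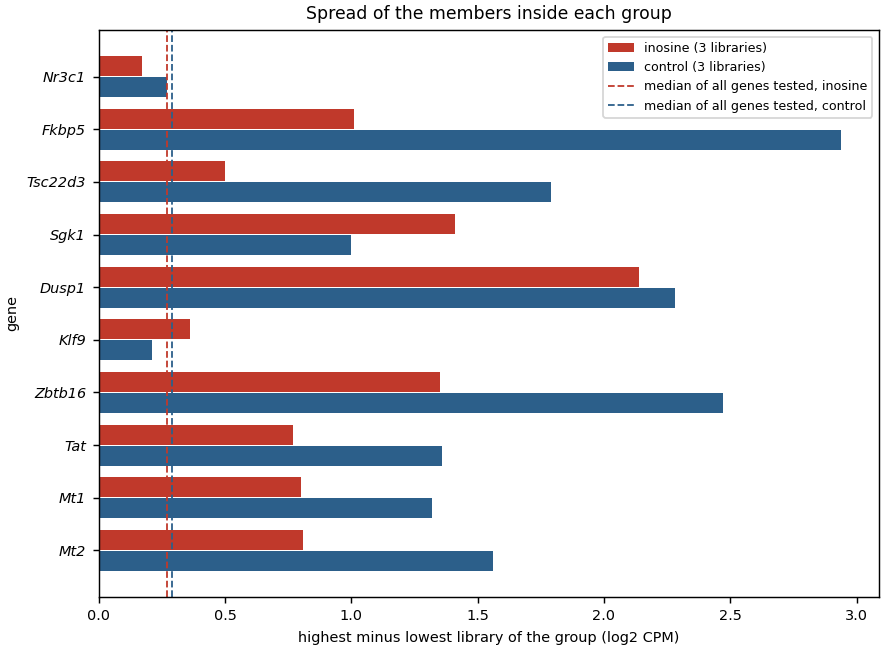
Difference between the highest and the lowest library of a group in log2 CPM, inosine bars above control bars for each gene, with dashed lines at the median of all genes tested (0.27 in inosine and 0.29 in control). Fkbp5 reaches 2.94 in control and 1.01 in inosine, while Nr3c1 stays at or under 0.27 in both groups.

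Inside the groups 8 of the 10 members, all but Nr3c1 and Klf9, had ranges above the median of all genes in both groups. Of these 8, the control range exceeded the inosine range for 7, and Sgk1 was the exception. With all libraries 7 of the 10 log2 fold changes were above 0, against 48.2% of all genes. Without control 1 it was 8 of 10, against 49.1% of all genes, and Dusp1 was the one that turned. The members whose value without control 1 is not given above were then at -0.15 (Nr3c1), -0.14 (Klf9), 0.06 (Sgk1), 0.10 (Mt1) and 0.30 (Mt2).

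**Figure D4:**
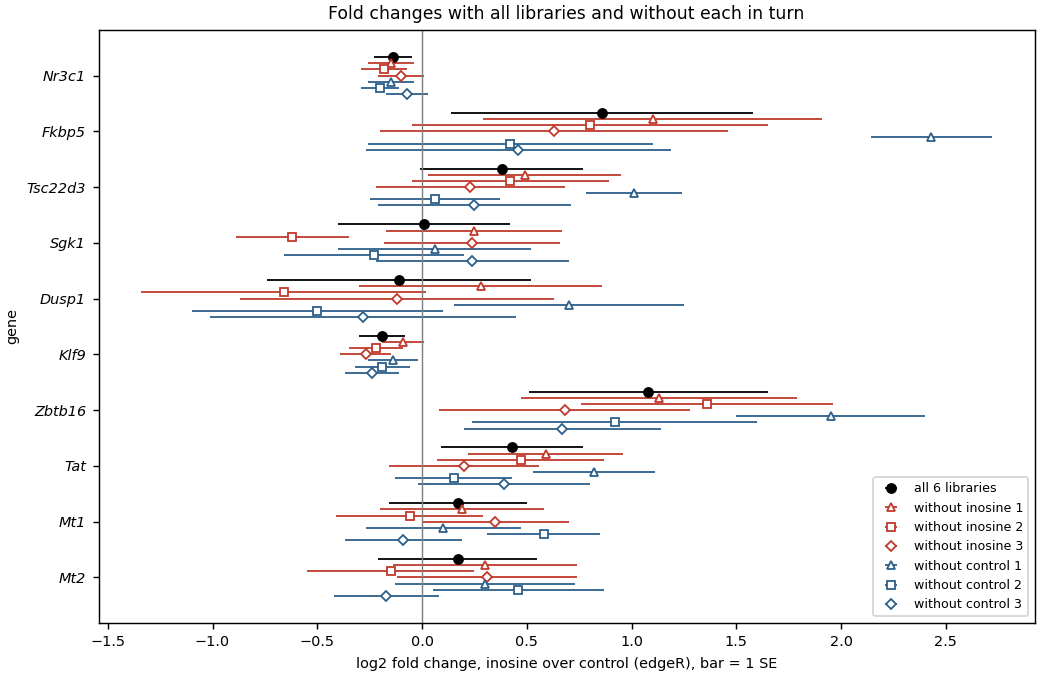
Log2 fold change of inosine over control from edgeR for each gene, with bars of 1 SE; the filled point uses all 6 libraries and each open one leaves out a single library. Without control 1 Fkbp5 is at 2.43 (0.86 with all libraries) and Zbtb16 at 1.95 (1.08 with all), while Nr3c1 and Klf9 stay between -0.27 and -0.07.

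A list of 40 further glucocorticoid-induced genes, which shares no member with the 10, was then placed beside them. All 40 were tested, 0 were called by edgeR or DESeq2, and 22 lay above 0, with a median log2 fold change of 0.02 against -0.01 over all genes. Without adjustment, 3 were higher and 2 lower at an edgeR p under 0.05 (12.5% of the list, against 14.5% of all genes). The 2 of smallest p were Mertk, a receptor kinase for the clearing of dead cells, and Ppargc1a, the coactivator PGC-1 alpha. Mertk had 18.8, 18.6 and 19.5 CPM in inosine, against 24.5, 26.4 and 23.0 CPM in control (log2 -0.38, SE 0.09, edgeR adjusted p = 0.144). Ppargc1a had 14.7, 14.2 and 15.7 CPM in inosine, against 12.2, 11 and 10.1 CPM in control (log2 0.42, SE 0.11, edgeR adjusted p = 0.184). For both genes control 1 lay with the other controls and outside the inosine range, which the choice by smallest p favours.

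The order of the controls recurred in that list. The list was chosen with earlier results of these data known and measures the same libraries, so it gives no independent support. Control 1 was the highest control for 33 of the 40 genes (82.5%, against 36.6% of all genes), and control 2 the lowest for 27 (67.5%, against 33%). The median of the list relative to each gene's own mean was -0.10, 0.09 and 0.19 in the inosine libraries and 0.30, -0.32 and -0.18 in the control libraries. Without control 1, 35 of the 40 lay above 0, with a median of 0.33 against -0.01 over all genes, and edgeR still called 0. Leaving out the control that is highest on most of these genes raises the difference by construction. Without control 2 or control 3, 18 of the 40 lay above 0, with medians of -0.08 and -0.07, and without each inosine library the number was 20 to 22. Pck1, the gluconeogenic enzyme PEPCK, chosen after its values were seen, had 3728, 3841 and 4321 CPM in inosine, against 4486, 2365 and 3148 CPM in control. Lpin1, a phosphatidate phosphatase chosen in the same way, had 95.3, 150 and 350 CPM in inosine, against 217, 30.0 and 80.2 CPM in control.

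Of the chaperones that hold the receptor, 18 of 18 tested lay above 0 (48.2% of all genes did), with a median of 0.23, and between 0.12 without inosine 3 and 0.37 without control 1. The libraries of a group differed: the median relative to each gene's own mean was 0.11, -0.03 and 0.37 in inosine and 0.09, -0.28 and -0.25 in control. Inosine 3 was the highest inosine library for 16 of the 18 and inosine 2 the lowest for 17, and control 1 lay above inosine 2 in that median. Over all genes edgeR called 0 of them, with 6 at an unadjusted p under 0.05, all higher, and DESeq2 called 2, both higher. Hspa8, the constitutive HSP70, had 1865, 1525 and 2136 CPM in inosine, against 1314, 1103 and 1101 CPM in control (log2 0.65, SE 0.15, edgeR adjusted p = 0.152). Chordc1, an HSP90 co-chaperone, had 66, 60.3 and 82.8 CPM in inosine, against 56.3, 37.2 and 38.3 CPM in control (log2 0.67, SE 0.18, edgeR adjusted p = 0.199). Control 1 was the highest control for 16 of the 18 (36.6% of all genes). For both named genes it stayed below all inosine libraries, but they were picked by smallest p on this contrast, which favours such separation. Over all genes tested, 20.9% had groups that did not overlap.

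Genes of hormone supply and clearance were spread around 0. Of 13 tested, 5 lay above 0 and 8 below, with a median of -0.04. EdgeR and DESeq2 called 0, with 2 at an unadjusted edgeR p under 0.05, both higher (15.4%, against 14.5% of all genes). Nr1i2, the xenobiotic receptor PXR, had 126, 107 and 118 CPM in inosine, against 110, 83.4 and 94.2 CPM in control (log2 0.28, SE 0.12, edgeR adjusted p = 0.323). Abcb1a, an efflux pump, was at log2 0.34 (SE 0.15, edgeR adjusted p = 0.342). Hsd11b1, which regenerates active corticosterone in the liver and was chosen after its values were seen, had 904, 784 and 792 CPM in inosine, against 752, 715 and 768 CPM in control (log2 0.15, SE 0.10).

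The coregulators of the receptor (18 tested, 12 above 0, median 0.04) had 0 genes called by edgeR and 0 at an unadjusted p under 0.05. The hepatic partner transcription factors (18 tested, 11 above 0, median 0.08) also had 0 called by edgeR. At an unadjusted edgeR p under 0.05 they had 5 (27.8%, against 14.5% of all genes). Ncoa6 and Setdb2 had the smallest p among the coregulators, at log2 0.21 and -0.25. Among the partners, Hnf4a, a master factor of hepatocyte genes, had 735, 710 and 794 CPM in inosine, against 541, 489 and 495 CPM in control (log2 0.55, SE 0.10, edgeR adjusted p = 0.0870). Foxa3 was at 0.56 (SE 0.13, edgeR adjusted p = 0.150), and DESeq2 called 2 genes of the list, both higher (1.92% of all genes were called). In Hnf4a all inosine libraries lay above all controls, control 1 included, unlike any of the 10 members. Hnf4a was picked for its small p on this contrast, which favours such separation, and 20.9% of all genes did not overlap.

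Around the metallothioneins, 16 genes of metal handling were tested, 10 lay above 0 and edgeR and DESeq2 called 0, with 2 at an unadjusted edgeR p under 0.05. Mtf1, the zinc sensor that binds metal response elements, had 17.8, 18.6 and 20.6 CPM in inosine, against 14.5, 14.2 and 14.1 CPM in control (log2 0.41, SE 0.09, edgeR adjusted p = 0.146). The zinc transporter gene Slc30a5 was at 0.30 (SE 0.12, edgeR adjusted p = 0.311). The libraries of Mtf1, picked for its small p, did not overlap between the groups, whereas those of Mt1 and Mt2 did. In the acute phase list 20 of 21 genes lay above 0 (48.2% of all genes did), with a median of 0.21, and 17 of 21 with a median of 0.14 without inosine 2. Relative to each gene's own mean the median was 0.05, 0.32 and -0.02 in inosine and -0.14, -0.07 and -0.23 in control. Inosine 2 was the highest inosine library for 12 (57.1%, against 33.3% of all genes). There were 0 genes called by edgeR and 5 at an unadjusted edgeR p under 0.05, all higher (23.8%, against 14.5% of all genes). DESeq2 called 2, both higher, and 1.92% of all genes. Il1r1, the interleukin-1 receptor, was at 0.83 (SE 0.19) and the orosomucoid Orm3 at 0.97 (SE 0.27), with edgeR adjusted p of 0.144 and 0.208.

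In the families of the members edgeR called 0 genes, and DESeq2 2. Over all genes DESeq2 called 1.92%, and 14.5% had an unadjusted edgeR p under 0.05. Without adjustment, the edgeR p was under 0.05 for 1 FK506-binding protein, 2 TSC22 genes, 2 around Sgk1, 4 phosphatases, 3 Krüppel-like factors, 0 of tyrosine breakdown and 2 around Zbtb16. The other FK506-binding proteins (12 tested) had a median of 0.06, with Fkbp11 at -0.58 and Fkbp4, the FKBP52 of the receptor complex, at 0.20. Fkbp4 had 261, 222 and 270 CPM in inosine, against 236, 212 and 209 CPM in control, a 1.13-fold span inside the controls where Fkbp5 had 7.71-fold. Of the 3 other TSC22 genes, Tsc22d1 was at -0.83 (SE 0.20) and Tsc22d2 at 0.41 (SE 0.11), and DESeq2 called 1 of them lower. The 10 kinases and partners around Sgk1 had a median of -0.06, with Rictor at -0.30 and Ndrg1 at -0.50. The 13 dual specificity phosphatases had a median of 0.11, with Dusp8, at no more than 2.0 CPM in any library, at 1.53 and Dusp19 at -0.48. Among 12 Krüppel-like factors (median -0.05, 1 called lower by DESeq2) Klf11 was at -1.04 and Klf10 at -1.05. Klf10 had 13.0, 12.6 and 11.7 CPM in inosine, against 14, 35.6 and 27.4 CPM in control, so control 1 stood close to the inosine libraries here as well, and without it edgeR called Klf10 lower (log2 -1.34, adjusted p = 0.0347). Leaving control 1 out widens that difference by construction, and the fit called 0.449% of all genes. The 9 genes of tyrosine and phenylalanine breakdown that surround Tat had a median of -0.08, with Hgd at -0.16 and Qdpr at -0.19. Relatives and partners of Zbtb16 (10 tested) had a median of -0.03, with Hdac5 at -0.43 and Zbtb7b at -0.22.

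Immediate early genes, which like Dusp1 answer stimuli within minutes, were also set beside the members. Of 15 tested, 8 lay above 0 (median 0.01). EdgeR and DESeq2 called 0, with 3 at an unadjusted edgeR p under 0.05. Atf3 was at 1.0 (SE 0.23) and Myc at -0.63 (SE 0.18), with edgeR adjusted p of 0.156 and 0.209. Some clock genes also set control 1 apart, in a list that shares Per1 and Cry2 with the glucocorticoid-induced list. It was the highest control for 9 of 18 tested (against 36.6% of all genes) and the lowest for 7 (against 38.4%). Of the 18, edgeR called 0 with all libraries, with 4 at an unadjusted edgeR p under 0.05 (22.2%, against 14.5% of all genes). DESeq2 called 1, and 1.92% of all genes. Without control 1 edgeR called 2 higher, Per2 and Cry1, and 2 lower, Dbp and Nr1d1, in a fit that called 0.449% of all genes. Dbp had 65.8, 55.0 and 40.8 CPM in inosine, against 19.4, 158 and 141 CPM in control. Nr1d1 had 14, 9.51 and 11.9 CPM in inosine, against 5.63, 64.4 and 33.3 CPM in control. Cry1 had 25.2, 24.2 and 26.6 CPM in inosine, against 38.6, 9.66 and 12.8 CPM in control. Per2 had 111, 115 and 118 CPM in inosine, against 78.9, 73.1 and 73.7 CPM in control, so control 1 was not apart on it, and its log2 fold change was 0.65 without control 1. Per2 and Hlf, the clock genes of smallest p with all libraries, were at 0.61 (SE 0.07, edgeR adjusted p = 0.0529) and 0.26 (SE 0.10, edgeR adjusted p = 0.311). On Dbp, Nr1d1 and Cry1 control 1 lay beyond the inosine libraries, on the side away from controls 2 and 3. Leaving it out widens the differences on these genes by construction, so those calls are a description. The part of the clock genes in the values of the 10 members was not tested.

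Genes whose libraries lay nearest to each member were sought among 9259 genes with a mean of at least 5 CPM. The measure was the root mean square difference of log2 CPM over the 6 libraries after centring each gene on its mean. Nearest to Fkbp5, whose own pattern measured 1.22, were Gadd45b (0.28), Tmc7 (0.32) and Arrdc2 (0.36). Gadd45b, a stress-inducible gene, had 10.2, 9.68 and 14.4 CPM in inosine, against 13.9, 2.28 and 2.74 CPM in control, and without control 1 edgeR called it higher (log2 2.18, adjusted p = 0.0347). It was picked for its likeness to Fkbp5, itself called in that fit, so its call is no separate support. That fit called 0.449% of all genes. Nearest to Tsc22d3 were Fmo5 (0.12), Ttll8 (0.15) and Trp53inp1 (0.16), with Tat in rank 5 at 0.17. Tat in turn had Gm41844 (0.08), Dhrsx (0.15) and Fmo5 (0.16) nearest and Tsc22d3 in rank 4. Fmo5, a flavin monooxygenase gene near both, had 1172, 1436 and 1823 CPM in inosine, against 2165, 685 and 996 CPM in control.

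For the other members the neighbours were different genes, except Gadd45b. Zbtb16 had Eif4ebp3 (0.39), Nlrp12 (0.44) and Gadd45b (0.50). Dusp1 had Ccn2 (0.23) and Jun (0.39), and Jun, a fellow immediate early gene, had 8.27, 24.9 and 24.1 CPM in inosine, against 35.2, 6.0 and 8.75 CPM in control. Sgk1 had Rtf2 (0.25), Slc25a25 (0.27) and Bhlhb9 (0.28). Mt2 had Mt1 first of all genes (0.25), then Lrg1 (0.32) and Plekha1 (0.35), and Mt1 had Gm4952 (0.17), Fgl1 (0.21) and Tnfrsf11b (0.23), with Mt2 in rank 6. The flat patterns of Nr3c1 (0.12) and Klf9 (0.16) lay within 0.05 of their neighbours Anapc4, Mapk9 and Cwc27, and Eid1, Cdk5rap2 and Ggps1. Among the members that varied, distances were smallest for Tsc22d3 and Tat and for Mt1 and Mt2. Nr3c1 and Klf9 were 0.19 apart, more than the size of either pattern, with Klf9 in rank 4722 for Nr3c1.

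**Figure D5:**
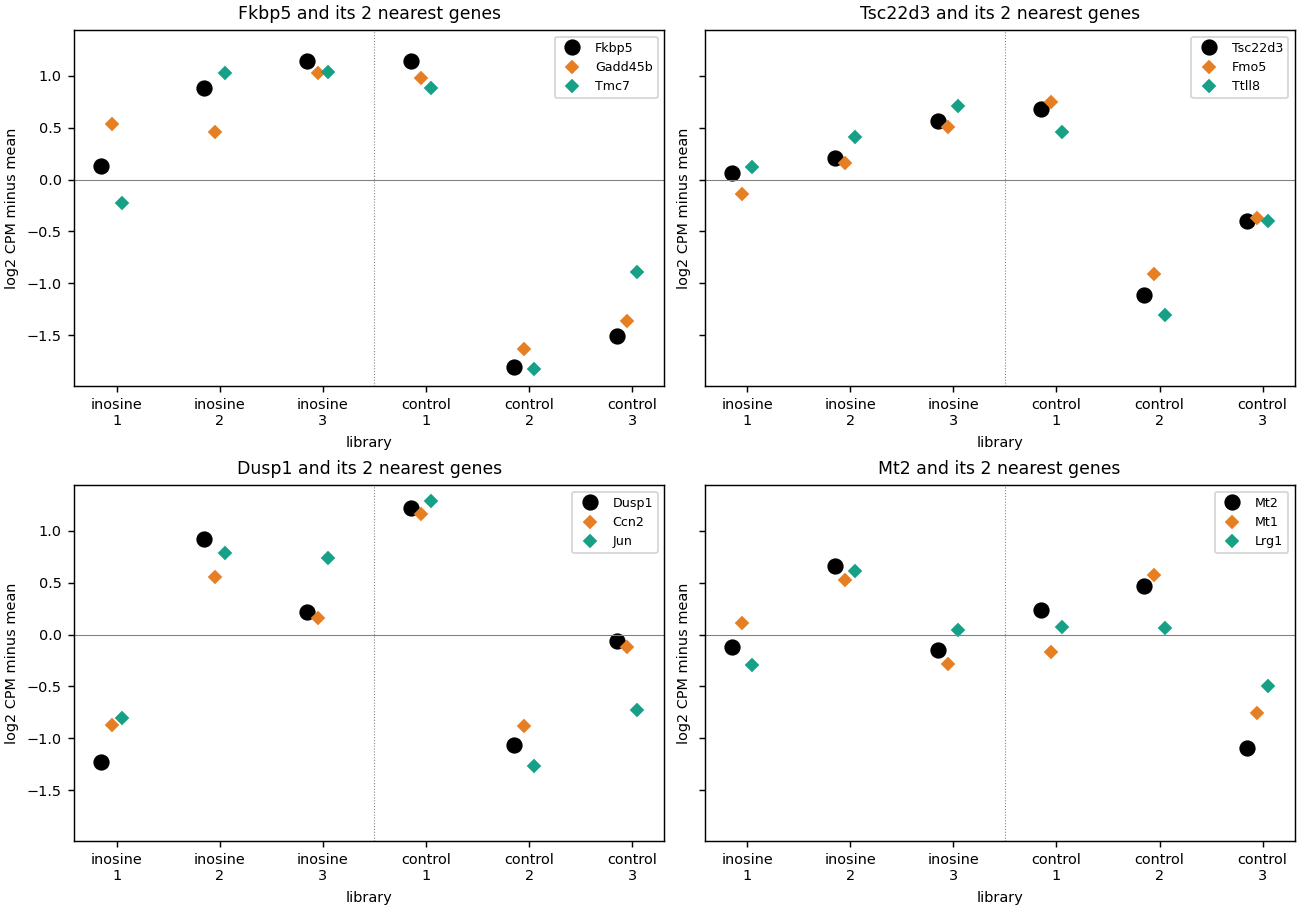
Log2 CPM of Fkbp5, Tsc22d3, Dusp1 and Mt2 (black circles) and the 2 genes nearest to each (coloured diamonds), centred on the mean of 6 libraries, with inosine libraries left of the dotted line. The Fkbp5 set is low in controls 2 and 3 and high in control 1, and the Mt2 set is low in control 3.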

How the data were processed

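RNA sequencing of 6 libraries from mouse liver was used, 3 per group by the treatment label. The authors deposited 1 table with expected counts, TPM and FPKM per gene and library, made with Bowtie2 and RSEM on GRCm39 per the submitters' processing notes, with no versions. It also holds the authors' log2 fold change (inosine over control) and q-value from DESeq2, per the file headers. The sources used here do not state strandedness. Of 18 columns of per-sample values 0 were left unmapped.

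Counts were rounded (89.8% to 90.3% were whole, within 1e-09) and tested with edgeR 4.0.16 in R 4.3.3: quasi-likelihood test, two-sided, TMM scaling, default low-count filter built on 10 counts, group as the only term, Benjamini-Hochberg adjustment over all genes, threshold 0.05. The SE is the log2 fold change divided by the square root of F. DESeq2 1.42.0 and limma 3.58.1 served as alternatives; the fits were checked on simulated data. Members and lists were chosen with earlier results of these data known, and some lists share genes. Named genes are the members, from each list any gene called or else the 2 of smallest p, and the 3 nearest genes of each member, of which 1 is not reported here; others are marked as chosen after their values were seen. Depth allows a count of 0 to hide up to 3 counts, 0.171 to 0.183 CPM, counting error only. PCR copies are not told apart. Promoter sequences are from RefSeq, GRCm38.p6, without chromosome 18.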

Additional observations from a re-analysis of the deposited data

How the results depend on the processing

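Libraries of the same replicate number share only that number: their deviations from the group means correlated at -0.04, -0.03 and -0.02. With the replicate number as a block edgeR called 0 genes, where it called 1 without it; Fkbp5 was then at 1.56 and no call on a member changed. Counts of genes called were 7 with upper quartile scaling, 9 without a low-count filter, 223 with DESeq2, 6 with limma-voom and 0 with limma on log2(TPM + 1) or log2(TPM + 0.1). Without each library in turn they ran from 0 to 56, the 56 without control 1. The members called ran from 0 to 1 over the same omissions (Fkbp5, without control 1) and were 0 under each other setting. Of the list genes edgeR called 0, DESeq2 9, and 0 to 6 were called over the omissions. Signs turned for 4 members. Sgk1 was at -0.01 with upper quartile scaling, -0.09 with limma-voom, -0.02 and -0.03 with limma on log2(TPM + 1) and log2(TPM + 0.1), -0.11 with the block, and between -0.62 and 0.25 over the omissions. Dusp1 was at 0.00285 and 0.00331 with limma on log2(TPM + 1) and log2(TPM + 0.1), and between -0.66 and 0.70 over the omissions. Over the omissions Mt1 lay between -0.09 and 0.58 and Mt2 between -0.17 and 0.46. The sign of the other 6 members held under every setting. Medians over libraries in place of means moved the log2 ratio of TPM to 2.55 for Fkbp5 and to -0.68 for Sgk1, and turned it to -0.29 for Mt2 (0.30 with means) and 0.21 for Dusp1 (-0.05 with means). FPKM moved none by more than the spread. With 3 libraries a group, the values of Fkbp5, Tsc22d3, Tat and Zbtb16 each moved by over 1.5 times without control 1 and without at least 1 other library; the cause was not tested. Member windows with the receptor element numbered 1, 2 with up to 2 mismatches and 4 for a hexamer alone.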

Other observations

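Some genes of the glucocorticoid-induced list, chosen after their values were seen, had control 1 above the other controls and above the inosine libraries too. Igfbp1, a liver-secreted binder of insulin-like growth factors, had 34.9, 28.0 and 19.6 CPM in inosine, against 83.3, 4.32 and 11.4 CPM in control. Ddit4, an inhibitor of mTORC1 signalling, had 9.06, 11.3 and 27.3 CPM in inosine, against 40.9, 4.26 and 4.14 CPM in control. Cdkn1a, the cell cycle inhibitor p21, had 2.87, 17.7 and 14.7 CPM in inosine, against 34.1, 1.2 and 1.11 CPM in control. Sult1e1, an estrogen sulfotransferase gene, had 3.43, 1.32 and 1.12 CPM in inosine, against 22.0, 0.240 and 0.700 CPM in control, where the lower controls rest on few counts. In these 4 genes inosine lay above controls 2 and 3 and below control 1 in each library.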
